A study of Mus musculus with 8 samples.

Results

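The genes described here encode the machinery that shortens, decaps and degrades mRNA. They are 56 of the 24539 genes in the count table and were chosen by name, as components of mRNA decay known from textbooks, by a rule that uses no measured value. By role, 15 act in deadenylation, 10 in decapping and 5′-to-3′ decay, 7 form the cytoplasmic LSM ring, 15 belong to the RNA exosome and 3′-to-5′ decay, 7 act in nonsense-mediated decay, and 2 are cytoplasmic poly(A) binding proteins. All 56 were among the 11501 genes with enough reads to be tested.

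Decay of most mRNAs starts with removal of the poly(A) tail by the PAN2-PAN3 and CCR4-NOT deadenylases. The body is then degraded from the 5′ end, after the cap is removed by DCP2 with its activator DCP1, by the exonuclease XRN1, or from the 3′ end by the exosome. The LSM ring binds the deadenylated 3′ end, and a short tail of uridines added there by the terminal uridylyltransferases TUT4 and TUT7 marks RNA for the ring and for the exonuclease DIS3L2. In macrophages, decay of cytokine mRNA is a known brake on inflammation.

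RNA was sequenced from bone marrow-derived macrophages of male C57BL/6 mice aged 7 weeks, cells grown from marrow in L929-conditioned medium and then kept overnight in M-CSF. Wild-type (WT) and Tut7-/- cells were compared, untreated and 4 h after 100 ng/ml lipopolysaccharide (LPS), the bacterial ligand of TLR4, with 2 libraries in each of the 4 groups. The Tut7-/- mice carry a Cas9 deletion made with a pair of guides in introns of Tut7, in every cell and throughout development. The labels do not tell if replicate libraries are of different animals or cultures, so p-values measure the spread between libraries, which may be technical.

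The libraries held 3767900 to 9394632 counts, of which the 56 genes took 0.209% to 0.33%. Tut7, listed as Zcchc6, had 427 to 1162 counts in the 4 WT libraries and 17 to 23 in the 4 Tut7-/- libraries. Replicates correlated at 0.971 (untreated Tut7-/-) to 0.992 (LPS Tut7-/-) on log2 CPM (counts scaled to library size) over all tested genes. The SD of the log2 difference between replicates over the 56 genes was largest, 0.57, in untreated Tut7-/- cells. All 10 macrophage markers listed were measured, with summed CPM of 29250 and 30530 in untreated WT, 14660 and 15390 in WT after LPS, 42870 and 35560 in untreated Tut7-/-, and 16990 and 18720 in Tut7-/- after LPS. Lyz2 was the largest part of this sum in each library, at 19120 and 17550 CPM in untreated WT and 6202 and 6572 after LPS. Within the list Fcgr1 and Cd14 were higher in every LPS library than in any untreated one. Of 9 stromal markers 6 were tested. The summed CPM of the 9 was 90.8 and 109 in untreated WT, 76.2 and 71.1 in WT after LPS, 27.0 and 31.4 in untreated Tut7-/-, and 17.5 and 17.1 in Tut7-/- after LPS. Of these, Pdgfrb was higher in every LPS library than in any untreated one. Of 4 T cell markers Cd3d and Cd3g were at 0 in all 8 libraries, Cd3e was above 0 in 1, at 0.106 CPM, and Lck had 0.111 to 0.772 CPM untreated and 10.8 to 18.1 after LPS. These marker values are scaled to library size alone, without the TMM scaling used for the decay genes. Leaving out TMM shifted the log2 LPS changes of all tested genes by a median of -0.83 in WT and -0.56 in Tut7-/-. Changes of the marker sums with LPS therefore depend on the scaling. The part of these markers in the differences below was not tested, and in bulk RNA fewer cells of a type and less RNA per cell cannot be told apart.

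LPS raised both subunits of the DCP2-DCP1A decapping enzyme and both 5′-to-3′ exonucleases. In WT cells Dcp2, Xrn1, Dcp1a and Xrn2 rose 3.57- to 14.6-fold, together with the deadenylase subunit Cnot7 and the exosome cofactor Ttc37, whereas 3 of the 9 subunits of the exosome ring (Exosc5, Exosc6 and Exosc7), the scavenger decapping enzyme Dcps, Dcp1b and Tob1 fell. In the quasi-likelihood test of edgeR, adjusted by Benjamini-Hochberg over 11501 genes, 13 of the 56 genes rose in WT (23.2%, against 27% of all tested genes) and 11 fell (19.6%, against 30.4%). In Tut7-/- cells 22 rose (39.3%, against 34.8%) and 14 fell (25%, against 33.2%). Without TMM scaling, which centres the libraries on each other, the split was 6 higher and 37 lower in WT and 14 and 31 in Tut7-/-. Over all 11501 tested genes it was then 1755 and 6595 in WT and 2853 and 5377 in Tut7-/-. The same 12 genes rose and the same 8 fell in both genotypes, and no gene was called in opposite directions. Of all tested genes 57.4% were called in WT and 68% in Tut7-/-, and their overlap is not given here. The median log2 change of the 56 genes was -0.03 in WT, beside -0.17 over all tested genes, and -0.21 in Tut7-/-, beside -0.07. The plot of LPS responses by role shows the split within each group of genes.

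The LPS responses also moved with the length and GC content of the transcripts. In an alternative added after the values were seen, smooth terms for both were removed from each library in a fit called here the length and GC model. In that model 31 of the 56 genes were called in WT (14 higher, 17 lower) and 34 in Tut7-/- (18 higher, 16 lower). Of all tested genes it called 64.8% in WT and 66.1% in Tut7-/-. Of the 24 calls in WT 21 were kept and 3 were lost, and of the 36 in Tut7-/- 22 were kept, 12 were lost and 2 turned (Ddx6 and Cnot6l). The rises of the main enzymes were kept at smaller sizes, with log2 values in WT and Tut7-/- of 2.92 and 3.17 for Dcp2, 2.35 and 2.37 for Dcp1a, 1.61 and 1.76 for Xrn1, 1.20 and 1.26 for Xrn2, 0.89 and 1.35 for Cnot7 and 1.15 and 1.36 for Ttc37. The falls of Dcps, Exosc5, Exosc6, Exosc7, Tob1 and Smg6 were kept in both genotypes.

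**Figure D1:**
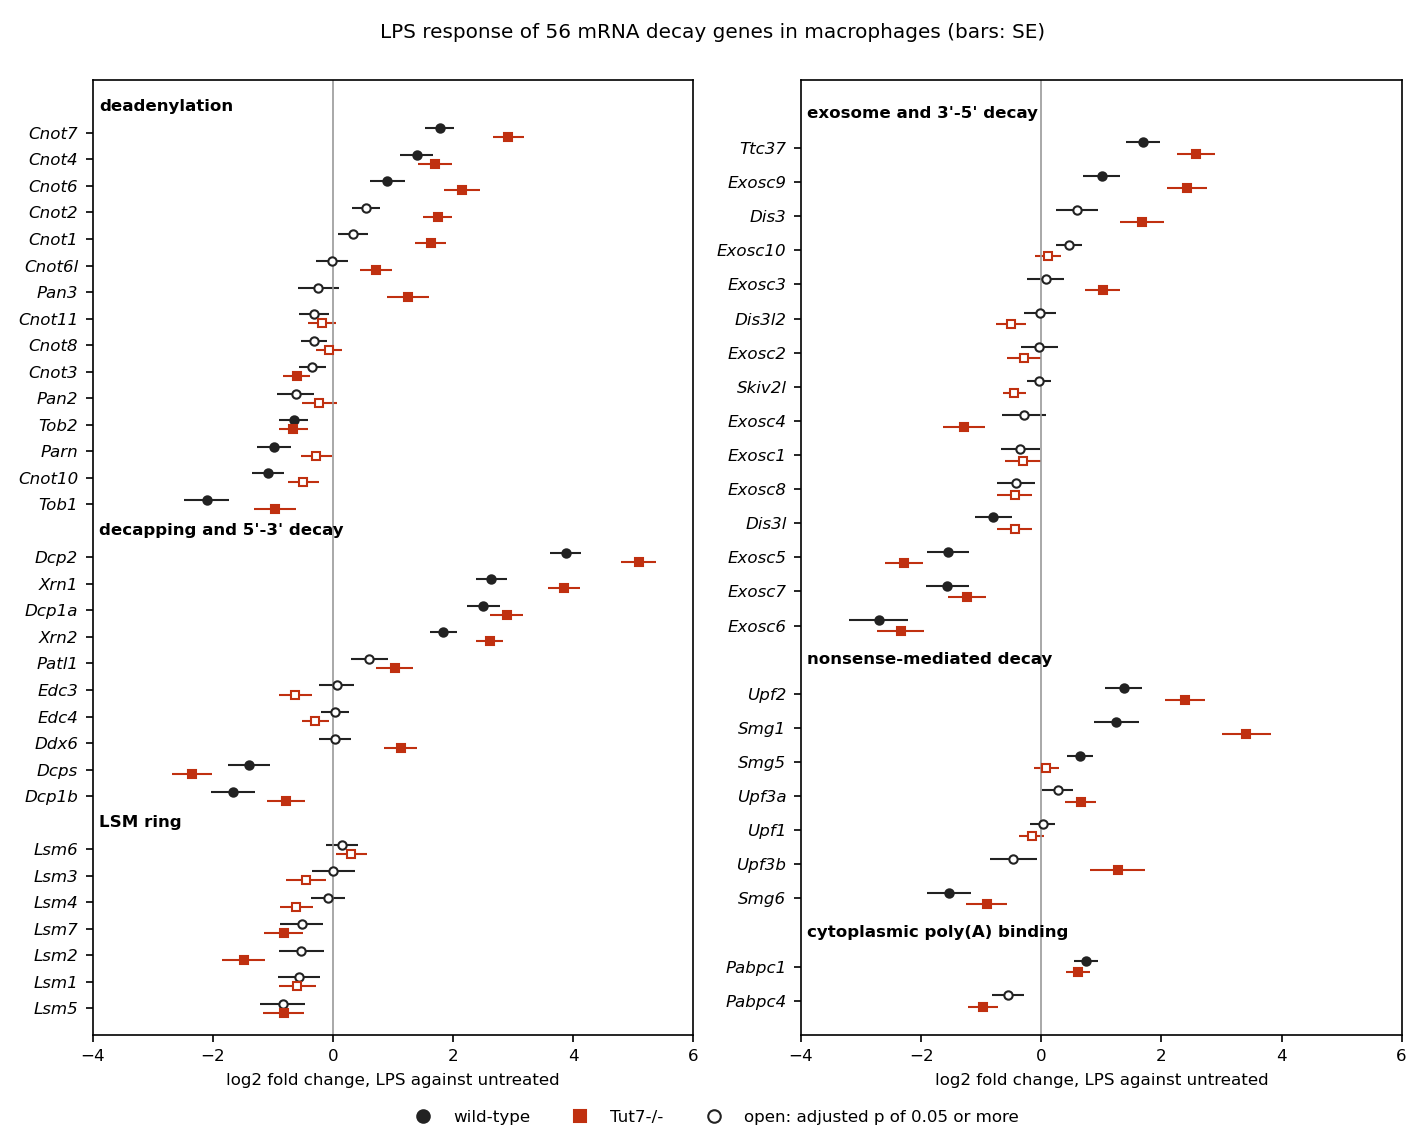
Log2 fold change of each of the 56 mRNA decay genes, LPS against untreated, in wild-type (black circles) and Tut7-/- (red squares) macrophages, grouped by role; bars are standard errors and open symbols did not pass an adjusted p of 0.05. Dcp2 lies farthest to the right, at 3.87 in wild-type and 5.09 in Tut7-/-, and Exosc6 lies at -2.71 and -2.34.

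Dcp2, the catalytic subunit that removes the cap, had CPM of 26.1 and 19.8 in the untreated WT libraries and 358 and 313 after LPS. In Tut7-/- it had 6.27 and 9.92 untreated and 307 and 251 after LPS. Every LPS library was above every untreated library, and the log2 fold change was 3.87 ± 0.26 (SE) in WT (edgeR adjusted p = 6.4e-09) and 5.09 ± 0.29 in Tut7-/- (edgeR adjusted p = 6.3e-10). CPM here is scaled by the trimmed mean of M-values (TMM), and values are given for replicate 1 and then replicate 2.

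Dcp1a, the coactivator of DCP2, had 26.2 and 26.2 CPM in untreated WT and 147.7 and 149.8 after LPS, and in Tut7-/- it went from 13.5 and 26.8 to 157 and 145. Its log2 fold changes were 2.50 ± 0.27 and 2.89 ± 0.28, with no overlap between LPS and untreated libraries. Its paralog Dcp1b moved the other way, from 9.02 and 11.1 CPM to 2.83 and 3.61 in WT and from 9.34 and 9.83 to 6.64 and 4.53 in Tut7-/-. These are log2 fold changes of -1.66 ± 0.37 (edgeR adjusted p = 0.0013) and -0.79 ± 0.31 (edgeR adjusted p = 0.037).

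Xrn1, the cytoplasmic 5′-to-3′ exonuclease that degrades decapped mRNA, rose from 19.3 and 28.5 CPM to 153 and 145 in WT. In Tut7-/- it rose from 7.38 and 8.86 to 135 and 100.2. Its log2 fold changes of 2.64 ± 0.25 (edgeR adjusted p = 3.0e-07) and 3.85 ± 0.27 (edgeR adjusted p = 8.0e-09) were the second largest in each genotype among the genes that rose. Xrn2, the nuclear enzyme that degrades RNA behind the terminating polymerase, went from 61.7 and 53.2 CPM to 215 and 195 in WT and from 28.8 and 39.0 to 227 and 186 in Tut7-/-, log2 fold changes of 1.84 ± 0.22 and 2.61 ± 0.23. In both genes the LPS libraries were all above the untreated ones.

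Other decapping factors moved less. Dcps, which hydrolyses the cap left after 3′-to-5′ decay, fell from 21.5 and 14.4 CPM to 8.05 and 5.24 in WT and from 32.0 and 21.3 to 4.43 and 5.90 in Tut7-/-. Its log2 fold changes were -1.39 ± 0.35 and -2.35 ± 0.34, and the groups did not overlap in either genotype. The RNA helicase Ddx6, an activator of decapping, and its partner Patl1 passed the test in Tut7-/- at log2 1.12 ± 0.27 and 1.03 ± 0.31, and did not in WT, at 0.03 and 0.61. Ddx6 was lower after LPS in the length and GC model in both genotypes, at -0.79 in WT and -0.52 in Tut7-/-, and Patl1 lost its call at 0.40. The difference between the genotypes did not pass the test for either gene. Dcp1b kept its fall in WT in that model and lost it in Tut7-/-, at -0.42. The enhancers of decapping Edc3 and Edc4 were not called in either genotype.

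**Figure D2:**
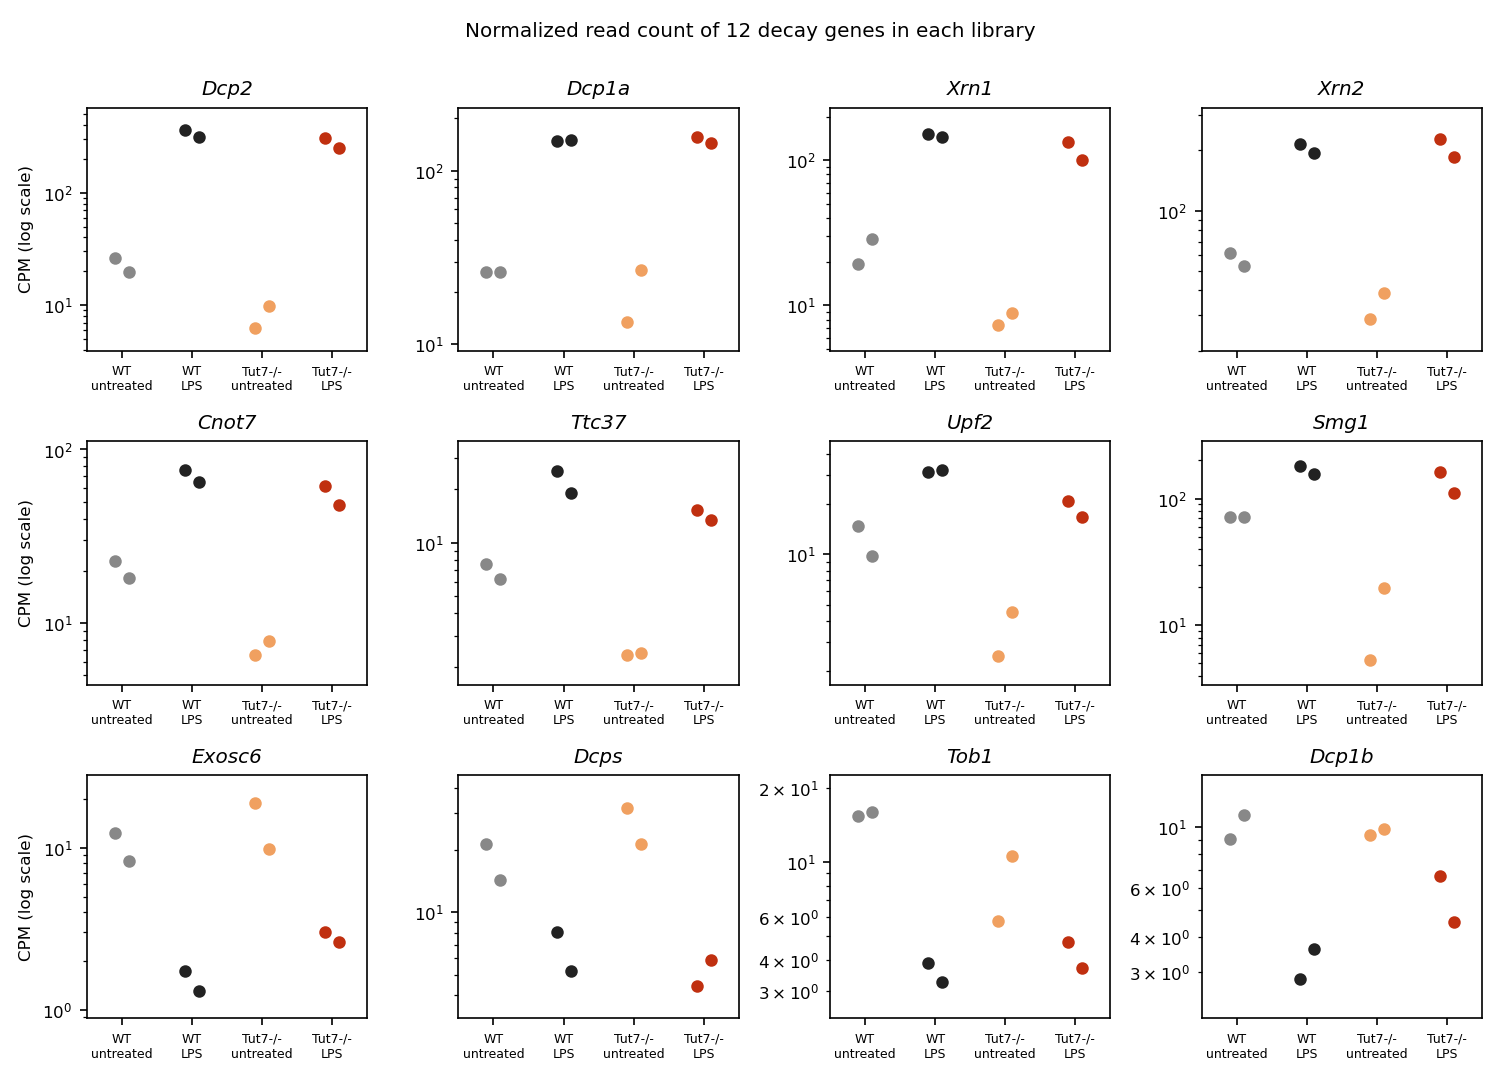
TMM-scaled CPM (log axis) of 12 decay genes in each of the 8 libraries, by group. Dcp2 runs from 6.27 to 26.1 CPM in the untreated libraries and from 251 to 358 after LPS, and Smg1 from 5.29 to 71.5 and from 111 to 182.

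The deadenylases split by subunit. CCR4-NOT is built on the scaffold Cnot1 and carries nuclease subunits of 2 kinds, Cnot6 or Cnot6l and Cnot7 or Cnot8. In WT 3 of its 10 subunits listed rose and 1 fell, and in Tut7-/- 6 rose and 1 fell. The rises are 30% and 60% of the subunits, beside 27% and 34.8% of all tested genes, and of the 6 in Tut7-/- only those of Cnot2 and Cnot7 were kept in the length and GC model. Cnot7 went from 22.9 and 18.2 CPM to 75.7 and 64.6 in WT and from 6.51 and 7.88 to 61.7 and 48.2 in Tut7-/-, log2 fold changes of 1.77 ± 0.25 (edgeR adjusted p = 1.9e-05) and 2.92 ± 0.26 (edgeR adjusted p = 1.3e-07). Its paralog Cnot8 had 54.0 and 51.0 CPM in untreated WT and 45.3 and 38.7 after LPS, and 51.1 and 57.8 and then 49.8 and 54.1 in Tut7-/-, and was called in neither genotype. Cnot4, a ubiquitin ligase that associates with the complex, rose from 19.3 and 18.5 CPM to 55.3 and 43.6 in WT and from 8.11 and 14.4 to 39.9 and 34.3 in Tut7-/-, where the length and GC model gave 0.36, which was not called.

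Cnot6 rose by log2 0.91 ± 0.28 in WT and 2.14 ± 0.30 in Tut7-/-, but the length and GC model gave -0.065 and 0.33, and neither passed the test. Cnot1 was at 82.9 and 97.3 CPM in untreated WT and 117 and 110 after LPS, which did not pass the test, and at 26.9 and 45.0 and then 126 and 96.5 in Tut7-/-, a log2 fold change of 1.63 ± 0.25 that was 0.29 and not called in the length and GC model. The WT and Tut7-/- cells overlapped after LPS and were apart before it. Cnot10, another subunit, fell by 1.08 ± 0.27 on the log2 scale in WT, and Cnot3 fell by 0.61 ± 0.22 in Tut7-/-, where it was 0.30 in the length and GC model. Cnot2 and Cnot6l passed the test in Tut7-/-, at 1.74 and 0.71, and not in WT, and neither difference between the genotypes passed. Cnot6l was lower after LPS, at -1.27, in the length and GC model.

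Outside CCR4-NOT, Tob1, an antiproliferative protein that links the complex to poly(A) binding protein, had 15.4 and 16.0 CPM in untreated WT and 3.92 and 3.28 after LPS. In Tut7-/- it had 5.78 and 10.5 and then 4.75 and 3.71. Its log2 fold changes were -2.10 ± 0.38 (edgeR adjusted p = 0.00022) and -0.97 ± 0.35 (edgeR adjusted p = 0.023). Tob2 fell by 0.66 in each genotype, a call that was lost in Tut7-/- in the length and GC model (-0.25). Parn, a poly(A)-specific ribonuclease that matures many noncoding RNAs, fell by 0.99 ± 0.28 in WT. In the length and GC model Parn was called lower in both genotypes, at -1.01 in WT and -0.55 in Tut7-/-. The nuclease Pan2 was called in neither genotype, and its partner Pan3 rose in Tut7-/- at 1.25 ± 0.35.

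The 9 ring subunits of the exosome, Exosc1 to Exosc9, did not move together. The ring has no catalytic activity in mammals and passes RNA to the nucleases Dis3 or Dis3l and Exosc10. In WT, 3 of 9 ring genes fell and 1 rose, and in Tut7-/- 4 fell and 2 rose. The falls are 33.3% and 44.4% of the ring genes, beside 30.4% and 33.2% of all tested genes. Exosc6 went from 12.3 and 8.33 CPM to 1.74 and 1.31 in WT and from 18.9 and 9.83 to 3.01 and 2.61 in Tut7-/-, and had the largest fall of the 56 genes in WT (log2 -2.71 ± 0.49, edgeR adjusted p = 0.00022). Its counts after LPS in WT were 8 and 4 reads, so the size of the fall carries a wide interval, from -3.75 to -1.67 (95%). Exosc5 went from 14.2 and 13.0 CPM to 4.13 and 5.24 in WT and from 26.8 and 18.9 to 3.64 and 5.63 in Tut7-/-.

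Exosc7 had log2 fold changes of -1.56 ± 0.35 and -1.24 ± 0.31. Exosc9 moved in the opposite direction, from 19.4 and 11.7 CPM to 33.9 and 27.9 in WT and from 7.38 and 4.25 to 31.3 and 30.3 in Tut7-/-, log2 fold changes of 1.005 ± 0.31 and 2.42 ± 0.33. The LPS and untreated libraries did not overlap for Exosc9 in either genotype, but the rise in WT was 0.41 and not called in the length and GC model. Exosc3 rose and Exosc4 fell in Tut7-/-, at 1.02 ± 0.29 and -1.29 ± 0.35, and neither was called in WT or differed between the genotypes in the test. Exosc4 lost its call in the length and GC model (-0.54), in which Exosc1 was lower after LPS in both genotypes, at -0.84 and -1.24. Without that model Exosc1, Exosc2 and Exosc8 were called in neither genotype, with log2 fold changes of -0.45 to -0.03.

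**Figure D3:**
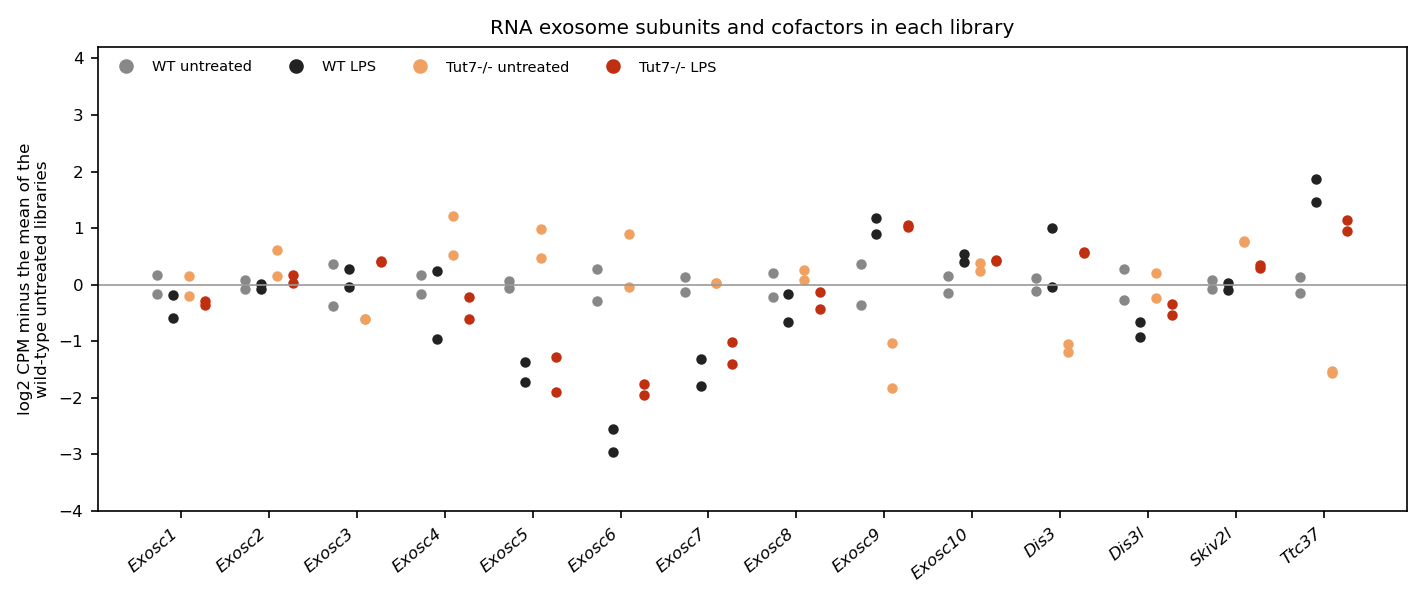
Log2 CPM of the exosome subunits and of 2 cytoplasmic cofactors in each library, minus the mean of the untreated wild-type libraries of the same gene; each dot is 1 library. After LPS (black and red) Exosc5, Exosc6 and Exosc7 lie below and Exosc9 and Ttc37 above the untreated wild-type libraries, and before LPS the Tut7-/- libraries (orange) are lowest for Exosc9, Dis3 and Ttc37.

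Ttc37, the scaffold of the SKI complex that feeds cytoplasmic mRNA into the exosome, rose from 7.59 and 6.22 CPM to 25.2 and 19.0 in WT. In Tut7-/- it rose from 2.34 and 2.39 to 15.2 and 13.3. Its log2 fold changes were 1.69 ± 0.29 and 2.58 ± 0.32, whereas the helicase of the same complex, Skiv2l, was called in neither genotype (63.7 and 71.1 CPM, then 62.9 and 68.5, in WT). Of the nucleases, Dis3 rose in Tut7-/- (log2 1.68 ± 0.36) and had 5.94 and 6.93 CPM and then 12.8 and 6.23 in WT, where the groups overlapped. The Tut7-/- value of Dis3 was 0.31 and not called in the length and GC model. Dis3l fell by 0.80 ± 0.31 in WT, and Exosc10 and Dis3l2, the nuclease that prefers uridylated RNA, were called in neither genotype. Dis3l lost its call (-0.57) in that model, and Exosc10 and Skiv2l were higher after LPS in both genotypes, by 0.39 to 0.65.

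In nonsense-mediated decay, the pathway that removes mRNA with premature stop codons, the central helicase Upf1 was called in neither genotype, with 75.9 and 94.2 CPM in untreated WT and 86.2 and 86.8 after LPS. In the length and GC model it was higher after LPS in both, by 0.42 and 0.64. The adaptor Upf2 rose from 14.8 and 9.73 CPM to 31.1 and 32.1 in WT and from 2.46 and 4.52 to 20.9 and 16.8 in Tut7-/-, log2 fold changes of 1.37 ± 0.30 and 2.39 ± 0.33. Smg1, the kinase that phosphorylates UPF1, rose from 70.9 and 71.5 CPM to 182 and 157 in WT, and from 5.29 and 19.7 to 161 and 111 in Tut7-/-. Its log2 fold changes were 1.25 ± 0.37 (edgeR adjusted p = 0.0094) and 3.41 ± 0.41 (edgeR adjusted p = 3.0e-06). The endonuclease Smg6 fell, by 1.54 ± 0.37 on the log2 scale in WT and 0.91 ± 0.34 in Tut7-/-. Smg5 rose in WT at 0.64 ± 0.22, and Upf3a and Upf3b rose in Tut7-/- at 0.65 ± 0.25 and 1.27 ± 0.45, the last of which was -0.17 in the length and GC model. That model lowered the Smg1 rise to 0.50 in WT and 1.69 in Tut7-/-, both still called. In the same model Smg5 was called higher in both genotypes, at 0.98 in WT and 0.78 in Tut7-/-.

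None of the 7 LSM ring genes was called in WT by edgeR, against 57.4% of all tested genes, or by DESeq2, against 53.1%. By edgeR 1 of the 7 had an unadjusted p under 0.05. The WT log2 fold changes of the 7 ran from -0.84 (Lsm5) to 0.15 (Lsm6). In Tut7-/-, Lsm2, Lsm5 and Lsm7 fell, by 1.49 ± 0.36, 0.82 ± 0.34 and 0.82 ± 0.33. These are 42.9% of the LSM ring genes, beside 33.2% of all tested genes. Lsm1, the subunit that sets the cytoplasmic ring apart from the nuclear one, had 12.1 and 10.3 CPM and then 5.44 and 10.2 in WT and 19.9 and 13.9 and then 10.3 and 11.9 in Tut7-/-. In the length and GC model Lsm1 and Lsm5 were lower after LPS in both genotypes (-0.79 and -1.86 in WT), Lsm2, Lsm3 and Lsm6 were lower and Lsm4 higher in Tut7-/-, and Lsm7 lost its call. Without TMM all 7 were lower in WT, where the log2 values of all tested genes then shifted by a median of -0.83. Of the 11501 tested genes 6595 were called lower there.

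Pabpc1, the main cytoplasmic poly(A) binding protein, was the most abundant of the 56 per unit of length, at 261 and 294 RPKM (reads per kilobase of transcript, scaled to library size) in untreated WT. The lowest there was Ttc37, at 1.89 and 1.66 RPKM. Pabpc1 went from 551 and 578 CPM to 1018 and 873 in WT and from 635 and 809 to 1114 and 1097 in Tut7-/-, log2 fold changes of 0.74 ± 0.21 and 0.61 ± 0.21. This rise depended on the scaling: without TMM the WT value was -0.094, and in the length and GC model the Tut7-/- value was 0.23 and not called. Pabpc1 has processed copies in the genome, and the sources used here do not tell how reads with several matches were counted, so its level is uncertain. Pabpc4 fell in Tut7-/- by 0.97 ± 0.25 on the log2 scale.

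Several genes overlap another gene of the table on the genome, among them Cnot7 (Vps37a), Exosc9 (Ccna2), Dis3 (Pibf1), Dcp1a (Cacna1d) and Exosc4 (Oplah). The sources used here do not tell whether the counting used strand, so reads of overlapping genes cannot be told apart. In the mm10 build, Dcp1a lies on chromosome 14 (30479486 to 30527056), Xrn1 on chromosome 9 (95954750 to 96057806), Cnot7 on chromosome 8 (40492538 to 40515847), Exosc6 on chromosome 8 (111056339 to 111057664) and Smg1 on chromosome 7 (118131308 to 118244437). Chromosome 8 holds 9 of the 56 genes and chromosome 9 holds 7.

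The balance between paralogs changed with LPS. The ratio of their RPKM within a library is given here as a description. It needs no scaling between libraries, but carries no correction for length and GC content. Cnot7 was at 0.339 and 0.286 times the level of Cnot8 in untreated WT and 1.34 and 1.33 times after LPS, and in Tut7-/- at 0.102 and 0.109 and then 0.99 and 0.712. By these uncorrected values Cnot8 was the more abundant per length in all 4 untreated libraries. Cnot7 was the more abundant in both WT libraries after LPS. The Cnot7 transcript had 39.8% GC and that of Cnot8 48.5%. In the length and GC model their LPS changes in WT were 0.89 and -0.38, beside 1.77 and -0.32 without it. Dcp1a was at 1.71 and 1.40 times Dcp1b in untreated WT and 30.8 and 24.5 times after LPS, and at 0.853 and 1.61 and then 13.9 and 18.9 in Tut7-/-.

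The ratio of Pabpc1 to Pabpc4 went from 32.7 and 25.6 to 76.0 and 64.9 in WT and from 21.6 and 22.3 to 66.2 and 65.4 in Tut7-/-. Cnot6 was at 1.34 and 1.16 times Cnot6l in untreated WT and 2.27 and 2.52 times after LPS, and the Tut7-/- libraries went from 0.78 and 1.06 to 2.33 and 2.92. For Tob1 and Tob2 the ratio fell in WT from 0.544 and 0.423 to 0.167 and 0.18, while in Tut7-/- the untreated libraries (0.165 and 0.234) overlapped those after LPS (0.208 and 0.133). Xrn1 stayed below Xrn2 in all 8 libraries, at 0.0745 to 0.244 times its level.

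**Figure D4:**
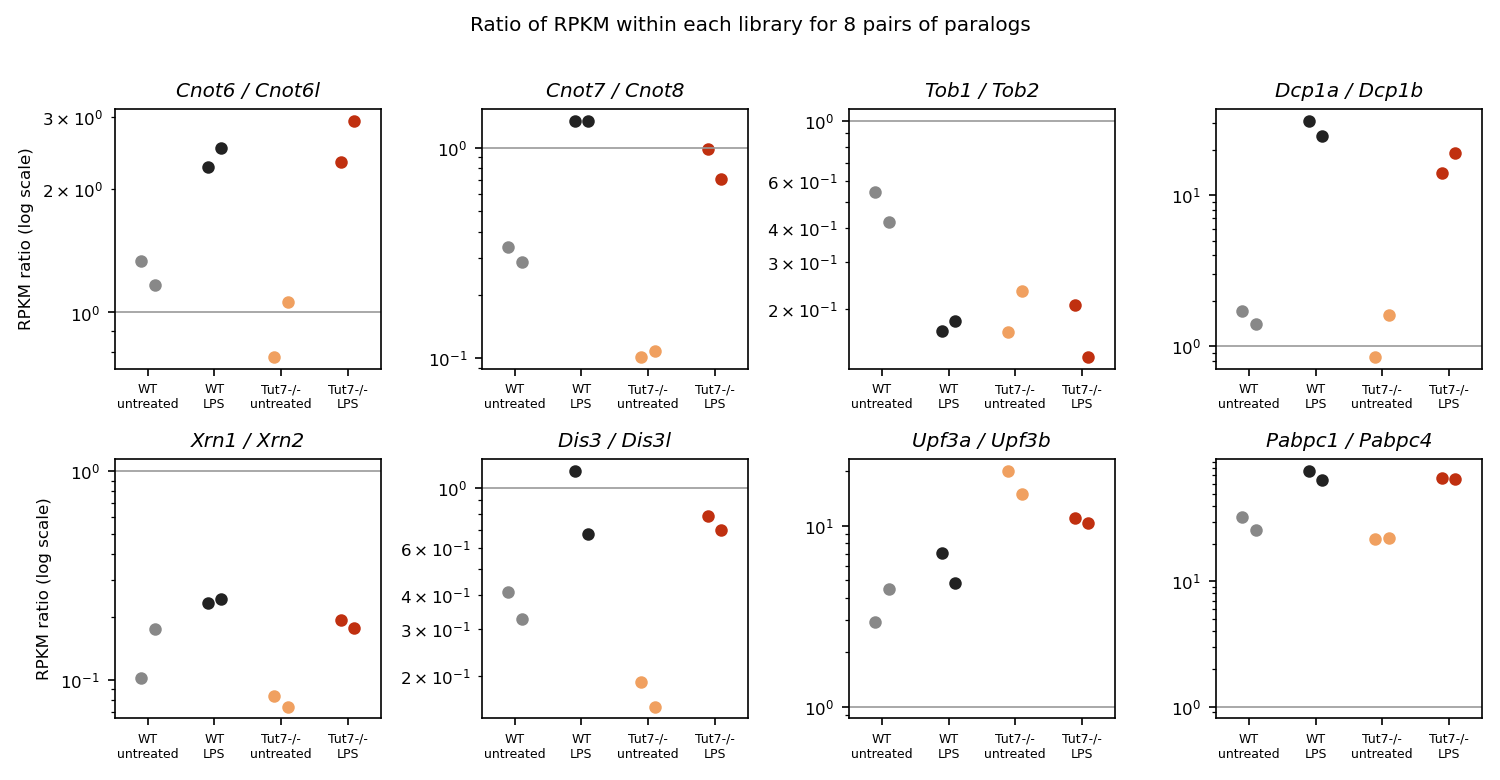
Ratio of the RPKM values of 8 pairs of paralogs or related enzymes in each library (log axis; the grey line marks equal levels), by group. Cnot7/Cnot8 is at 0.102 to 0.339 in the untreated libraries and 0.712 to 1.34 after LPS, and Dcp1a/Dcp1b at 0.853 to 1.71 and 13.9 to 30.8.

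Promoter windows from RefSeq (GRCm38.p6, the same assembly as mm10), 250 bases before to 50 after a transcript start, matched 46 of the 56 genes with 56 windows. They were searched on both strands for 6 short motifs. GCGCATGC, the core bound by NRF1, was in 10.7% of these windows and 2.71% of all 32851 windows of that length. AAGATGGC, bound by YY1, was in 10.7% and 2.75%, and CCGGAAGT, bound by ETS factors, in 8.93% and 3.89%. The YY1 site of Lsm7 lies in both of its overlapping windows and is counted for each. For the other 3 motifs searched, AAANNGAAA, the core of the interferon-stimulated response element, was in 5.36% against 10.6%, TGANTCA (AP-1) in 3.57% against 7.81%, and TGACGTCA (CRE) in 1.79% of each. A match is only a match of letters. Dcp1b, which fell with LPS in both genotypes, holds a YY1 match and is not shown. Windows are shown for 5 other genes that LPS moved in both genotypes and that hold a motif, with the motif in capitals. They are Xrn2 (chr2:147012749-147013048, plus strand, ETS), Cnot4 (chr6:35133688-35133987, minus strand, NRF1), Ttc37 (chr13:76098484-76098783, plus strand, NRF1), Upf2 (chr2:5951219-5951518, plus strand, interferon element core) and Exosc5 (chr7:25658903-25659202, plus strand, NRF1).
Xrn2: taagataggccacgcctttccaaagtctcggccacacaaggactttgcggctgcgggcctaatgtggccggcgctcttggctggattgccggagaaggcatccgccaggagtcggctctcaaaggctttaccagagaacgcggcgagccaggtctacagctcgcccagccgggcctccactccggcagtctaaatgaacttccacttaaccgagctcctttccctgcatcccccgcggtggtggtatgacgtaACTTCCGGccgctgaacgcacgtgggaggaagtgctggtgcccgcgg
Cnot4: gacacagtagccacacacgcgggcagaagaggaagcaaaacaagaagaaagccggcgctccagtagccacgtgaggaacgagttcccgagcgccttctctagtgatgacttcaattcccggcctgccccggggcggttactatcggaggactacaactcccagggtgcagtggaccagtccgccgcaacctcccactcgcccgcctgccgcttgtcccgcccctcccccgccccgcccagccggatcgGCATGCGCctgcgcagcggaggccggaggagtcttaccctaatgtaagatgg
Ttc37: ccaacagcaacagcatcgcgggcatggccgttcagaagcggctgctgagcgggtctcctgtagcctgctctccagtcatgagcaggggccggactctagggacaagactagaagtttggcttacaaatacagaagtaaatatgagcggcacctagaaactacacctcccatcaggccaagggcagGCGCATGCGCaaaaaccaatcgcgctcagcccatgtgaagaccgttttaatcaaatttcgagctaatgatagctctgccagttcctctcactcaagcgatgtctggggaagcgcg
Upf2: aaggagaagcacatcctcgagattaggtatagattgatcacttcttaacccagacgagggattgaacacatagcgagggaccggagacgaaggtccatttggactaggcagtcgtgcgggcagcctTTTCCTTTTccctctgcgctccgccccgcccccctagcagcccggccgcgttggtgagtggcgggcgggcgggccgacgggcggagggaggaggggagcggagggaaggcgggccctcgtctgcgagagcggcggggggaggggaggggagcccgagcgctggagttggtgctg
Exosc5: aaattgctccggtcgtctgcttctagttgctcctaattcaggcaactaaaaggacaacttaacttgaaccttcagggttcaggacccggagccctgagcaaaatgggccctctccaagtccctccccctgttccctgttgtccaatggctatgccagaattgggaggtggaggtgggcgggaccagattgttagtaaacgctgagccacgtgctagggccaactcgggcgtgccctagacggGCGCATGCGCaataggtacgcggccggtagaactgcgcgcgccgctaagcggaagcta
In Ttc37, which rose with LPS, and Exosc5, which fell, the NRF1 letters run into their own reverse complement, so that both strands match.

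Untreated Tut7-/- cells had lower levels of many decay genes than WT. In edgeR's test 17 of the 56 genes were lower (30.4%, against 22.2% of all tested genes) and 7 were higher (12.5%, against 14.8%). Without TMM 19 were lower and 0 higher, beside 2980 lower and 322 higher of all 11501 tested genes. The lower ones were Smg1, Upf3b and Upf2 of nonsense-mediated decay, the CCR4-NOT genes Cnot1, Cnot2, Cnot6, Cnot6l and Cnot7, Pan3 and Tob1, the decapping and exonuclease genes Dcp2, Ddx6, Xrn1 and Xrn2, and Exosc9, Dis3 and Ttc37. The higher ones were Edc3, Exosc4, Exosc5, Dis3l2, Skiv2l, Smg5 and Pabpc4.

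Smg1 showed the largest difference, 70.9 and 71.5 CPM in WT against 5.29 and 19.7 in Tut7-/- (log2 -2.48 ± 0.40, edgeR adjusted p = 0.00068). Upf3b, which joins UPF2 to the exon junction complex, had 11.3 and 6.40 CPM in WT and 1.11 and 1.95 in Tut7-/- (log2 -2.48 ± 0.41, edgeR adjusted p = 0.00084), the latter from 9 and 22 reads. Upf2 was at 14.8 and 9.73 against 2.46 and 4.52, and Pan3, the regulatory subunit of the PAN nuclease, at 55.7 and 51.6 against 9.34 and 25.6. For these genes both Tut7-/- libraries were below both WT libraries, and replicate 1 was the lower of the Tut7-/- pair. Of the genes that were higher, Skiv2l had 63.7 and 71.1 CPM in WT and 114 and 115 in Tut7-/- (log2 0.76 ± 0.20), and Dis3l2 had 15.3 and 16.8 against 29.6 and 23.3.

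The untreated difference moved with base composition. The 17 lower genes had transcripts of 37.6% to 48.2% GC (median 43.6%) and a median length of 5314 nt, and the 7 higher genes 51.6% to 61.1% GC (median 54.9%) and a median of 3257 nt. Over the 56 genes the log2 difference had a Spearman correlation of 0.747 with GC content, and over 11383 tested genes it was 0.7. Genes are not independent replicates, and these values are a description. Within single libraries, the deviation of a gene from its mean over all libraries correlated with GC at 0.59 and 0.539 in the untreated Tut7-/- libraries and at -0.427 to 0.0983 in the other 6.

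In the length and GC model 5 of the 56 genes were higher in untreated Tut7-/- cells (against 11.2% of all genes) and 4 lower (against 8.48%). The 4 lower were Smg1 (log2 -1.22 ± 0.21), Upf3b (-1.58 ± 0.37), Pan3 (-1.23 ± 0.26) and Exosc9 (-0.77 ± 0.24). The 5 higher were Edc3, Lsm1, Lsm3, Lsm5 and Pabpc1. Differences as large as -1.55 for Xrn1 and -1.48 for Dcp2 were -0.10 and -0.16 in that model, and Xrn2, Ddx6 and Cnot6l turned from -0.76, -1.05 and -1.07 to 0.11, 0.06 and 0.38. Smg1, Upf3b and Pan3 kept the call in all 15 alternatives run. Without WT untreated replicate 1 fewer of the 56 genes were called, and fewer of all tested genes. The median log2 difference of the 56 was -0.05 in that fit, as with all 8 libraries. Whether base composition or length has a part in the differences was not tested beyond the length and GC model.

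**Figure D5:**
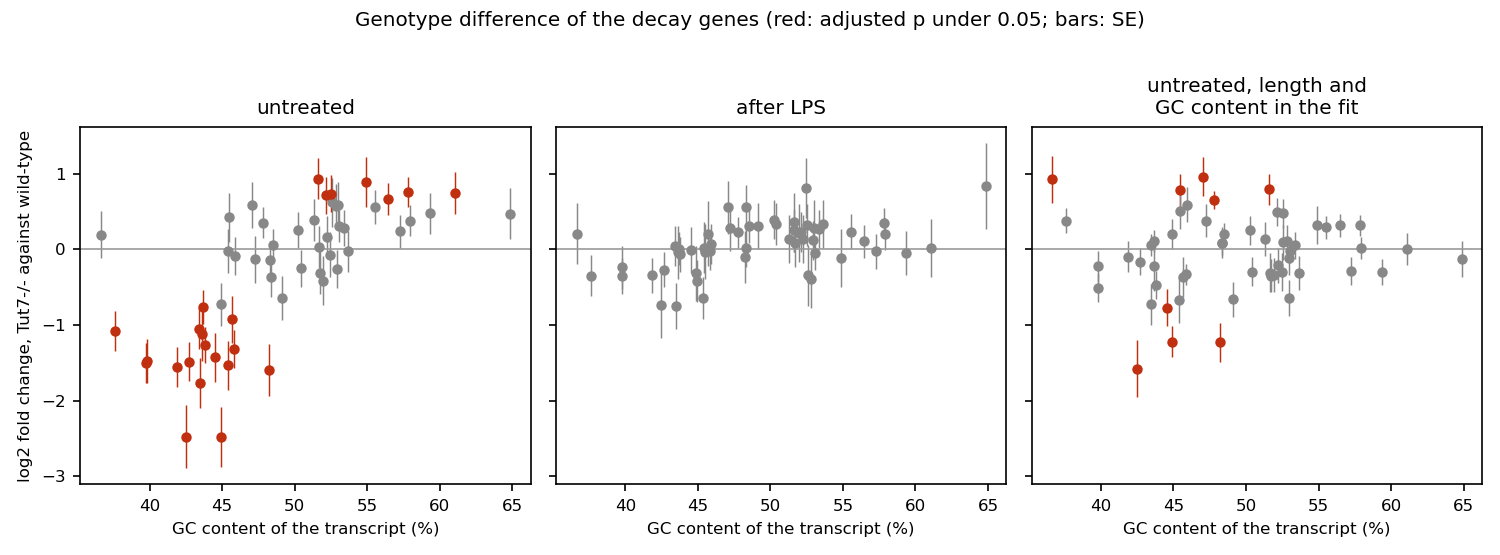
Log2 fold change of the 56 genes, Tut7-/- against wild-type, against the GC content of the transcript: untreated (left), after LPS (middle), and untreated with length and GC content in the model (right). Red marks an adjusted p under 0.05 and bars are standard errors; 24 genes are red on the left, 0 in the middle and 9 on the right.

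After LPS none of the 56 genes differed between the genotypes by edgeR's test, in which 0.626% of all tested genes were higher and 0.774% lower. At an unadjusted p under 0.05 there were 2 (Upf2 and Ttc37, both lower in Tut7-/-), against 12.9% of all tested genes, and DESeq2 called 0, against 2.62%. The smallest adjusted p was 0.29, for Upf2, at 31.1 and 32.1 CPM in WT and 20.9 and 16.8 in Tut7-/- (log2 -0.75, 95% interval -1.39 to -0.11). For Dcp2 the interval ran from -0.76 to 0.23, for Xrn1 from -0.84 to 0.16, for Cnot7 from -0.86 to 0.15 and for Dcp1a from -0.52 to 0.56, so that differences within these bounds remain possible. Dis3l2 was at 15.0 and 16.7 CPM in WT and 19.0 and 18.3 in Tut7-/- (interval -0.33 to 0.80).

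The count after LPS depended on which libraries were in the fit. The libraries in a fit set the spread, the filter and the scaling together. With the 4 LPS libraries alone the log2 values of all tested genes shifted by a median of -0.092. With only the 4 LPS libraries in the fit, 6 genes were lower in Tut7-/-, against 10% of all tested genes: Upf2 (-0.84), Ttc37 (-0.75), Cnot4 (-0.52), Cnot7 (-0.45), Xrn1 (-0.44) and Dcp2 (-0.36). Without both untreated Tut7-/- libraries, 1 gene, Upf2, was lower, and 6.23% of all tested genes were called in either direction. All 6 are among the genes that LPS raised in both genotypes, and for each both Tut7-/- libraries were below both WT libraries. They were picked by a test on these same libraries, so the lack of overlap is no further support. In the length and GC model of all 8 libraries none of the 56 was called, against 6.46% of all tested genes. The values there were -0.49 for Upf2, -0.46 for Ttc37, -0.21 for Cnot4, -0.05 for Cnot7, 0.06 for Xrn1 and 0.09 for Dcp2.

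The LPS response itself differed between the genotypes for 2 genes. It was larger in Tut7-/- for Smg1, by 2.16 ± 0.53 on the log2 scale (edgeR adjusted p = 0.038), and for Cnot1, by 1.29 ± 0.35 (edgeR adjusted p = 0.0498), which was 0.52 and not called in the length and GC model. These are 3.57% of the 56, and of all tested genes 4.06% had a larger response and 0.435% a smaller one. In both genes the untreated Tut7-/- libraries were low (5.29 and 19.7 CPM for Smg1, 26.9 and 45.0 for Cnot1), and after LPS the Tut7-/- libraries were at 161 and 111 and at 126 and 96.5, beside 182 and 157 and 117 and 110 in WT. In the fit of all 8 libraries no gene had a smaller response, also none at an unadjusted p under 0.05 or by DESeq2. The response and the untreated difference share the untreated libraries and are not independent. The count of 2 depended on single libraries, and so did the count over all tested genes. The median difference of the 56 genes was 0.34 with all 8 libraries, beside 0.15 over all tested genes. Without untreated Tut7-/- replicate 1 it was 0.17, beside 0.13, and without replicate 2 it was 0.47, beside 0.21.

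A wider list of decay factors outside the 56 showed where other members of these pathways moved. Of 72 such genes tested, 27 rose and 16 fell with LPS in WT (37.5% and 22.2%, against 27% and 30.4% of all tested genes), and 36 rose and 12 fell in Tut7-/- (50% and 16.7%, against 34.8% and 33.2%). The largest called changes in WT were in Papd7 (log2 4.34 ± 0.26), a noncanonical poly(A) polymerase, Noct (3.98 ± 0.26), a deadenylase-related phosphatase, and Ago4 (-3.72 ± 0.44), an Argonaute protein. Papd7 went from 13.2 and 20.3 CPM to 346 and 333 in WT. In Tut7-/- they were Noct (4.66 ± 0.28), Magohb (4.23 ± 0.42), of the exon junction complex, and Cpeb4 (4.22 ± 0.26), which binds a cytoplasmic polyadenylation element. In untreated Tut7-/- cells 7 of the 72 were higher and 23 lower (9.72% and 31.9%, against 14.8% and 22.2%). After LPS edgeR called 0 of the 72, with 7 at an unadjusted p under 0.05, beside 12.9% of all tested genes, and DESeq2 called 1.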

How the data were processed

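Poly(A) RNA was sequenced as paired reads of 75 nt. The authors used FANSe3 (version not given in the sources used here) to map and count them on RefSeq transcripts of the mouse mm10 build, and deposited raw read counts and RPKM values per gene symbol for each library. The submitters' processing notes also name edgeR. Counting strand and the treatment of reads with several matches are not given in the sources used here.

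The deposited counts were tested with edgeR 4.0.16 (R 4.3.3): genes kept by filterByExpr (11501 of 24539), TMM scaling, and a robust quasi-likelihood fit over all 8 libraries in 4 groups, with Benjamini-Hochberg adjustment and a threshold of 0.05. The 5 comparisons were LPS against untreated in each genotype, Tut7-/- against WT in each treatment, and the difference between the LPS responses. With 2 libraries a group an exact permutation test cannot go below p = 0.33 (two-sided) and none was run. The deposited RPKM values served only for levels per length and paralog ratios. Transcript length was implied by counts and RPKM, and GC content came from GENCODE M21. Alternatives were DESeq2 1.42.0, its size factors, no TMM, no filter, a replicate block, 4 libraries, leaving out each library, and 2 chosen after seeing the data: length and GC content in the model, and omission of both untreated Tut7-/- libraries. The procedure was tested on simulated data. Figures used matplotlib 3.10.9.

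The genes and lists were chosen with earlier results of these data known. The text names all called genes where a comparison has 10 or fewer, otherwise the 10 largest changes, plus the paralog pairs and the central enzymes. Further called genes were named after their values were seen. A deposited sheet that repeats the RPKM columns was not used.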

Additional observations from a re-analysis of the deposited data

Results flagged for a closer look

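Smg1, the kinase of nonsense-mediated decay, had an LPS response that differed between the genotypes by 2.16 on the log2 scale, Tut7-/- minus WT (edgeR adjusted p = 0.038). The difference stands beside low untreated Tut7-/- values of 5.29 and 19.7 CPM, and with transcript length and GC content in the model it was 1.19. Over 14 alternatives it ran from 1.19 to 3.44 and was called in 6. The size factors of DESeq2 and scaling by library size alone were among those in which it was not called. Smg1 and Cnot1 are 3.57% of the 56 genes, beside 4.06% of all tested genes with a larger response in Tut7-/-. Cnot1, the scaffold of CCR4-NOT, differed by 1.29 (edgeR adjusted p = 0.0498). Over 14 alternatives the Cnot1 difference ran from 0.52 to 1.725 and was called in 4. With length and GC content in the model it was 0.52 and did not pass (edgeR adjusted p = 0.16). The part of base composition in either difference was not tested beyond that model.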

How the results depend on the processing

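Counts of called decay genes varied as follows, each against the share of all tested genes called in the same fit. For LPS in WT (24), scaling by library size alone gave 43 (6 higher, 37 lower) and shifted the median of all genes by -0.83, and leaving out a library gave 15 to 30, with 15 without WT LPS replicate 1. For LPS in Tut7-/- (36, against 68%), library size alone gave 45 (14 higher, 31 lower), against 71.6%. Leaving out a library moved the count, and the median of the 56 then ran from -0.28 to -0.11. For untreated Tut7-/- against WT (24), length and GC content in the model gave 9, and leaving out a library 12 to 34. For the genotypes after LPS (0, against 1.4%), the 4-library fit gave 6, against 15.7%. Omission of both untreated Tut7-/- libraries gave 1, against 6.23%. With a single library left out the median of the 56 ran from 0.03 to 0.09. For the difference between responses (2), DESeq2's size factors gave 0, the DESeq2 test 1, no filter 11, length and GC content 1, and leaving out a library 0 to 20.

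In LPS WT, Upf1 (-0.82) and Pabpc1 (-0.094) changed sign without TMM. With length and GC content in the model, the genes called with or without it that changed sign were in LPS WT Cnot6 -0.065, Skiv2l 0.39 and Ddx6 -0.79, in LPS Tut7-/- Upf3b -0.17, Cnot6l -1.27, Skiv2l 0.43, Upf1 0.64, Ddx6 -0.52, Cnot3 0.30, Lsm4 0.57 and Lsm6 -0.64, and in the untreated comparison Xrn2 0.11, Cnot6l 0.38 and Ddx6 0.06. The cause was not tested. Dcp2, Dcp1a, Xrn1, Xrn2, Cnot7, Ttc37, Exosc6, Exosc7 and Dcps kept their LPS calls in all alternatives run in both genotypes.

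With the replicate number as a block the counts were 25, 37, 25, 0 and 3 in the order above. The shares of all tested genes were 57.7%, 68.3%, 38.3%, 1.54% and 5.09%. The labels do not say that the numbers pair libraries, and differences between replicates correlated between groups at -0.257 to 0.363.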
